A study of Homo sapiens with 6 samples.

Results

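Lysosomes break down proteins, glycans and lipids in an acid lumen. Soluble hydrolases do the digestion, membrane proteins such as LAMP1 and LAMP2 line the organelle, and the vacuolar ATPase (V-ATPase) pumps protons into it. The V-ATPase has a V0 sector in the membrane, which passes the protons, and a V1 sector on the cytosolic side, which hydrolyses ATP. Many genes of this system carry in their promoters the CLEAR motif, which is recognised by the MiT/TFE transcription factors TFEB, TFE3, MITF and TFEC.

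The genes described here are 52 of the 46427 genes of the count table, taken by their symbols and sorted by known role. The list was chosen with earlier results of these data known, so no test of the list as a whole was made. They comprise 6 lysosomal membrane proteins with NPC2, 12 cathepsins with TPP1, 9 glycosidases, 4 sulfatases, 5 lipid hydrolases with prosaposin, 6 V0 subunits, 8 V1 subunits and 2 V-ATPase accessory proteins. GBA2 stands among the glycosidases, although its product is the glucosylceramidase outside the lysosome. All 52 genes had enough counts to be tested.

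RNA-seq was performed with 3 libraries of Hs578T cells carrying control shRNA (shCTRL) and 3 libraries of Hs578T cells carrying CCN3 shRNA #2 (shCCN3). Hs578T cells derive from a triple-negative breast cancer, and CCN3 is a secreted matricellular protein of the CCN family. Both lines carry a retroviral pSUPER vector and were selected with puromycin, so the retrovirus and the selection are shared by the groups. Each group is 1 stable line with 1 shRNA, so that an effect of CCN3 loss cannot be told apart from an off-target effect of the shRNA or from a difference between the lines.

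The libraries held between 56159110 and 68393177 counts, and 3 counts in a library corresponded to between 0.0435 and 0.054 CPM (the usual counts-per-library unit, after TMM scaling of library sizes), which covers counting error only. Within a group, libraries differed beyond counting noise, with a chi-square per degree of freedom between 6.75 and 42.5, so none was a copy of another. The pairs that held shCCN3 replicate 2 had 34.7 and 42.5, and this library stood apart from the other shCCN3 libraries. The share of counts on mitochondrial genes was 5.47% ± 0.0503 in shCTRL and 4.61% ± 0.264 in shCCN3 (SD, n = 3). The mesenchymal markers of Hs578T (VIM, ZEB1, CDH2, FN1, AXL and SPARC) summed to between 12100 and 12200 CPM in shCTRL and between 11800 and 12000 CPM in shCCN3, mostly from VIM, while CDH2 rose from a mean of 89 to 162 CPM (log2 fold change 0.87, edgeR adjusted p = 9.06e-05). Markers of luminal epithelium (9 genes) summed to between 181 and 199 CPM and between 234 and 285 CPM, mostly from KRT18. EPCAM, CDH1 and KRT19 lay at or near 0. The higher sum in shCCN3 does not hold for each gene. KRT18 rose (log2 fold change 0.51, edgeR adjusted p = 0.00172), while KRT8 fell (log2 fold change -0.52, edgeR adjusted p = 0.00221). PGR (0.41), GATA3 (-0.66) and FOXA1 (0.2) did not pass the test. The macrophage and osteoclast markers summed to between 4.7 and 5.38 CPM in shCTRL and between 3.49 and 4.15 CPM in shCCN3, with ITGAM, TYROBP, AIF1 and CD163 at 0 in every library. In this list ACP5 fell from a mean of 3.96 to 0.955 CPM, while CSF1R rose from 0.405 to 2.04 CPM (log2 fold change 2.33, edgeR adjusted p = 0.000161), so that the sum covers opposite changes. The endothelial markers summed to between 3.9 and 5.41 CPM and between 3.56 and 4.43 CPM, with CDH5 at 0.

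The targeted gene was examined first. CCN3 mRNA was at 103, 102 and 98.1 CPM in the shCTRL libraries and at 47.4, 47.2 and 46.5 CPM in the shCCN3 libraries. The groups did not overlap, and CCN3 fell by 1.10 on the log2 scale (SE 0.055, quasi-likelihood test of edgeR, adjusted p after Benjamini and Hochberg = 1.34e-06). The exact permutation test over the 6 libraries gave a two-sided p of 0.1, which is the smallest that 3 against 3 libraries allow.

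The promoter windows are shown here because they hold the motifs through which this gene system is known to be regulated. A RefSeq promoter window, from 250 bases before to 50 bases after a gene's start on GRCh38.p14, was at hand for 36 of the 52 genes, and those without an entry are ARSA, ASAH1, ATP6V0E1, ATP6V1A, ATP6V1B2, ATP6V1C1, ATP6V1H, CTSB, CTSK, CTSO, CTSS, HEXA, LAMP2, NAGLU, PSAP and SGSH. The core of the CLEAR motif, TCACGTGA, which reads the same on both strands, was found in 6 of these 36 genes (16.7%), against 321 of 27305 windows of all genes (1.18%) and 260 of 12597 genes tested (2.06%). Its 9 occurrences are printed 5′ to 3′ on the strand of the gene, 30 bases each, with the motif in capitals, and the position counts from the start site to the first base of the motif.
ATP6V0D1, chr16:67481199-67481228, minus strand, position -60: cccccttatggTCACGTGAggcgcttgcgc
GAA, chr17:80101493-80101522, plus strand, position -77: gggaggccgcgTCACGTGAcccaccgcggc
GAA, chr17:80101538-80101567, plus strand, position -32: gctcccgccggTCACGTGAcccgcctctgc
CTSA, chr20:45891298-45891327, plus strand, position -26: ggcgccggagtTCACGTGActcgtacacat
ATP6V1G1, chr9:114587699-114587728, plus strand, position -59: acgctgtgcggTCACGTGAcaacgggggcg
MCOLN1, chr19:7522571-7522600, plus strand, position -42: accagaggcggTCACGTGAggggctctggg
MCOLN1, chr19:7522598-7522627, plus strand, position -15: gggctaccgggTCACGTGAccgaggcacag
LAMP1, chr13:113297199-113297228, plus strand, position -29: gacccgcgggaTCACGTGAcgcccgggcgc
LAMP1, chr13:113297226-113297255, plus strand, position -2: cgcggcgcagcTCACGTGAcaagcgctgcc

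The shorter E-box CACGTG, which lies inside the CLEAR core, was found in 13 of the 36 genes (36.1%) and in 12.2% of the genes tested. The following E-boxes outside a CLEAR core belong to genes whose mRNA differed between the groups, and are in capitals.
ATP6V0E2, chr7:149872885-149872914, plus strand: cccttctgcatCACGTGgggactgcgcctc
ATP6V0B, chr1:43974892-43974921, plus strand: cggcgtggggtCACGTGgtaccggcgcatc
ATP6V0B, chr1:43974910-43974939, plus strand: taccggcgcatCACGTGggcgagttaggtg
CTSD, chr11:1763956-1763985, minus strand: ccggccgcgccCACGTGaccggtccgggtg
CD63, chr12:55729171-55729200, minus strand: cgggtaggggcCACGTGgccctggccgggc
NEU1, chr6:31862929-31862958, minus strand: tgctgcgtgatCACGTGggaggagatgagc

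The M-box, TCATGTG on either strand, is the element through which MITF is known to act on melanocyte genes. It was found in 6 of the 36 genes (16.7%) and in 2.61% of the genes tested. Those with differing mRNA are printed with the M-box in capitals, and the others are CTSA, TPP1 and SCARB2.
CD63, chr12:55729093-55729122, minus strand: tgttaccgcgtCACATGAgggaggccggcg
PPT1, chr1:40097238-40097267, minus strand: cgcgcccgcggTCATGTGacacagcgaaga
ATP6V0C, chr16:2513912-2513941, plus strand: cggggcccaggTCATGTGacgcggccgcgg

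Of the 52 genes, 22 were lower in shCCN3 (42.3%) and 4 were higher (7.69%) at an edgeR adjusted p under 0.05. Of all 17419 genes tested, 17.3% were lower and 16.2% were higher. The fall was mostly shallow: 7 of the 22 lower genes, and so 7 of the 52, fell by at least 0.5 on the log2 scale. None of the 52 rose by that much with an adjusted p under 0.05. The 7 of 52 and the absence of such rises stand beside 9.27% and 9.1% of all genes tested. The median log2 fold change was -0.16 over the 52 genes and 0.01 over all genes tested, and 37 of the 52 values were negative. In 26 genes every shCCN3 library lay below every shCTRL library (23.6% of all genes tested), and in 8 every shCCN3 library lay above (22.7% of all genes tested). Without shCCN3 replicate 2, 26 of the 52 genes were lower and 6 were higher (20.5% and 20% of all genes tested in that fit). Without shCCN3 replicate 1, 15 were lower and 3 were higher (13% and 12.1% of all genes tested). The 52 genes together took 0.958%, 0.972% and 0.994% of the counts of the shCTRL libraries and 0.827%, 0.863% and 0.821% of those of the shCCN3 libraries. This share is weighted to the genes with the most counts in shCTRL. Their mean CPM went from 1380 to 950 for CTSD, from 1020 to 818 for CTSB and from 784 to 543 for CTSL. In bulk RNA, fewer cells with high levels and less mRNA per cell cannot be told apart.

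**Figure D1:**
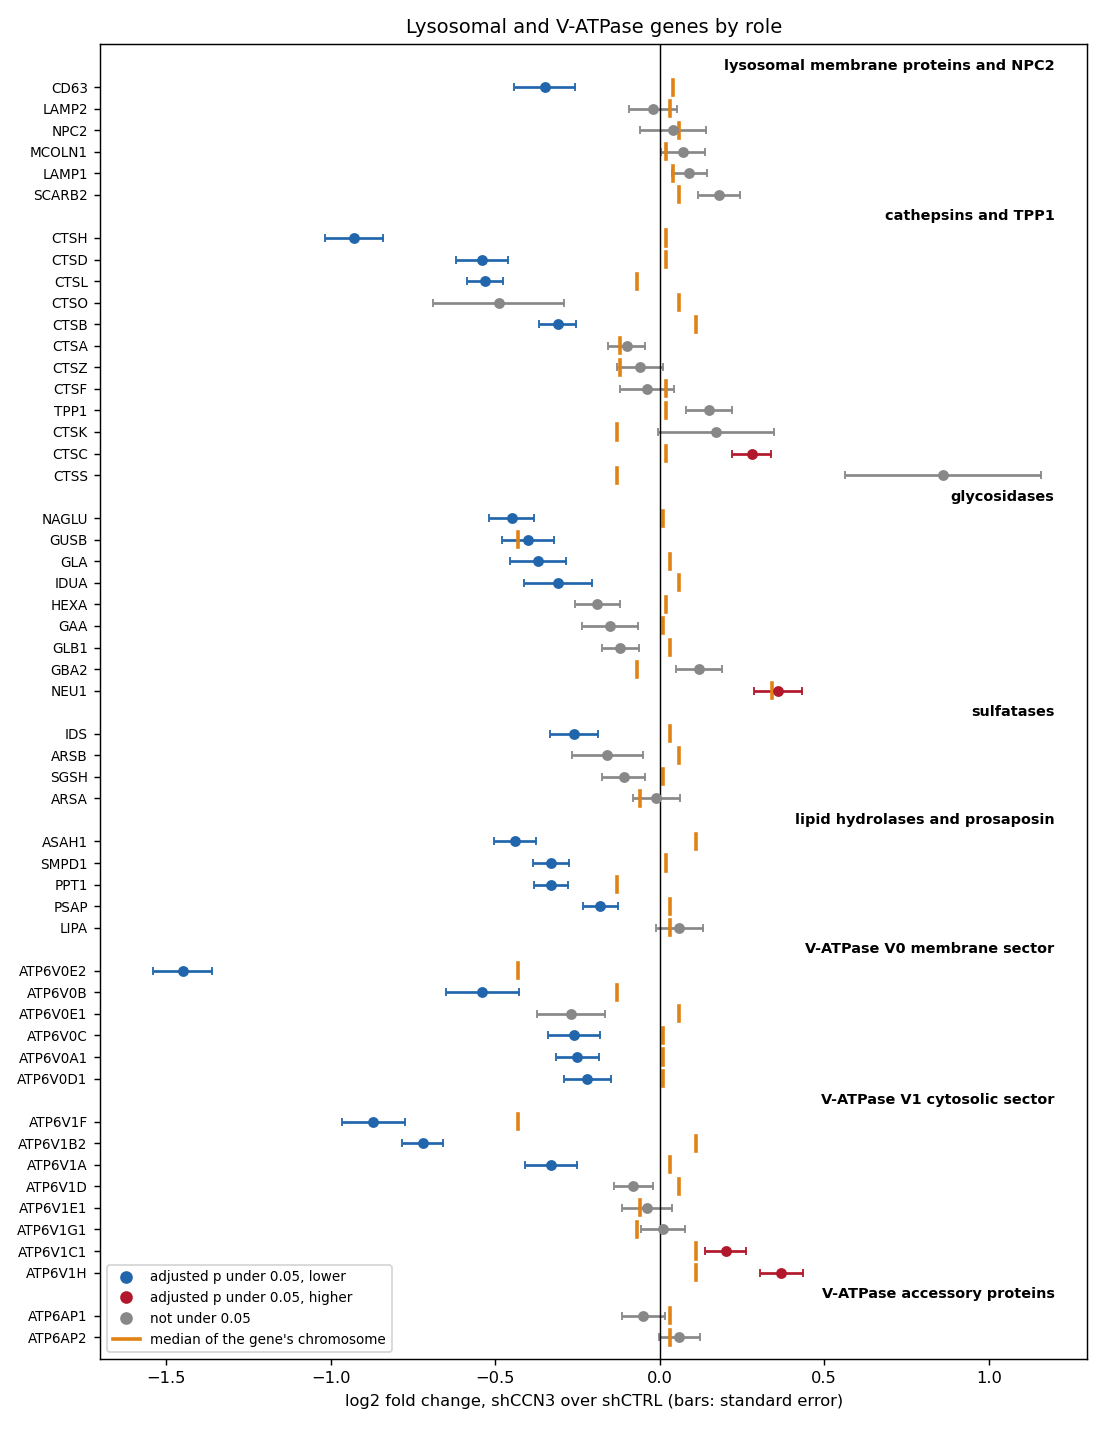
Log2 fold change of each of the 52 genes, shCCN3 over shCTRL (n = 3 libraries each), with the standard error as bars, grouped by role; orange ticks mark the median of all other genes tested on the same chromosome. The 6 V0 subunits all lie left of 0, and ATP6V0E2 lies farthest left at -1.45.

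The roles differed in their counts, which stand beside 17.3% lower and 16.2% higher over all genes tested. Among the V0 subunits 5 of 6 were lower and none was higher (median log2 fold change -0.26). This count fell to 2 under the replicate block and without shCCN3 replicate 1, shCTRL replicate 1 or shCTRL replicate 3. It fell to 3 without shCCN3 replicate 3 or shCTRL replicate 2 and to 4 with no filter on low counts. With DESeq2 and without shCCN3 replicate 2 it rose to 6. Among the lipid hydrolases with prosaposin 4 of 5 were lower (median -0.33), and among the glycosidases 4 of 9 were lower and 1 was higher (median -0.19). Over the alternatives the lower genes numbered 3 or 4 in the former list and 3 to 6 in the latter. The cathepsins with TPP1 held 4 lower genes and 1 higher gene of 12 (median -0.08), and the V1 subunits 3 lower and 2 higher of 8 (median -0.06). Among the sulfatases 1 of 4 was lower (median -0.14), and this count ranged from 0 to 2 over the alternatives. The membrane proteins with NPC2 had 1 lower gene of 6 (16.7%, median 0.05), near the share of all genes tested, and neither accessory protein passed the test. No test was made of a difference between roles.

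The largest fold change of the 52 genes was in the V0 subunit ATP6V0E2, an isoform of the small e subunit of the proton channel. It was at 69.2, 72.4 and 77.4 CPM in shCTRL and at 26.4, 29.8 and 23.7 CPM in shCCN3. All shCCN3 libraries lay below all shCTRL libraries, and the gene decreased by 63.5% (log2 fold change -1.45, SE 0.09, edgeR adjusted p = 4.36e-06). Its antisense gene ATP6V0E2-AS1 overlaps it and went from 2.26 to 1.04 CPM, and since the strand setting of the counting is not given in the sources used here, reads of this pair could have been mixed. ATP6V0E1, the other e isoform, was at 247, 258 and 289 CPM in shCTRL and 211, 255 and 194 CPM in shCCN3, and these groups overlapped (log2 fold change -0.27, SE 0.103, edgeR adjusted p = 0.0782). Counted per kb of exon, ATP6V0E2 made up 13.5%, 13.6% and 13% of e subunit mRNA in shCTRL and 6.52%, 6.13% and 6.41% in shCCN3, so the minor isoform became a smaller share in every shCCN3 library.

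ATP6V0B encodes a proteolipid of the rotating ring in V0. Its levels were 157, 171 and 190 CPM in shCTRL and 107, 140 and 109 CPM in shCCN3 (log2 fold change -0.54, SE 0.111, edgeR adjusted p = 0.00498). The groups did not overlap, with shCCN3 replicate 2 closest to shCTRL. The other lower V0 genes were ATP6V0C, the main proteolipid (log2 fold change -0.26), ATP6V0A1, an isoform of the large a subunit (-0.25), and ATP6V0D1, which joins the ring to the central stalk (-0.22). These 3 calls were lost under 6, 4 and 7 of the 13 alternative settings, with adjusted p up to 0.137, 0.0678 and 0.147, so ATP6V0E2 and ATP6V0B were the V0 genes that passed under every setting. For the a subunit per kb of exon, ATP6V0A1 made up 26.6% ± 1.72 in shCTRL and 20.4% ± 1.07 in shCCN3, and TCIRG1, the isoform known from osteoclasts, made up 68.8% ± 2.15 and 75.0% ± 1.54 (SD, n = 3). TCIRG1 itself was at 71.2, 77.4 and 88.5 CPM and at 87.2, 101 and 93.5 CPM, groups that overlapped (log2 fold change 0.25, edgeR adjusted p = 0.0612). ATP6V0A2, the a isoform known from the Golgi, had a log2 fold change of -0.01.

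In the V1 sector the changes ran in both directions. ATP6V1F, the F subunit of the central stalk, was at 89.6, 90.6 and 95.9 CPM in shCTRL and at 50.7, 57.5 and 43.4 CPM in shCCN3 (log2 fold change -0.87, SE 0.096, edgeR adjusted p = 0.000142). ATP6V1B2, the widely expressed B subunit of the ATP-hydrolysing head, went from 133, 141 and 135 CPM to 82.8, 78.2 and 87.3 CPM (log2 fold change -0.72, SE 0.062, edgeR adjusted p = 3.09e-05). In neither gene did the groups overlap. ATP6V1A, the catalytic A subunit, was also lower (-0.33). Of the subunits that regulate the contact of V1 with V0, ATP6V1H was higher, at 71.5, 66.5 and 65.8 CPM in shCTRL and 88.9, 92.5 and 82.7 CPM in shCCN3 (log2 fold change 0.37, SE 0.066, edgeR adjusted p = 0.00217). ATP6V1C1, the C subunit, rose from 138, 134 and 126 CPM to 157, 147 and 155 CPM (log2 fold change 0.20, SE 0.061, edgeR adjusted p = 0.03), a call lost under 5 of the 13 alternatives. ATP6V1D, ATP6V1E1 and ATP6V1G1, subunits of the stalks, had overlapping groups and log2 fold changes of -0.08, -0.04 and 0.01. The accessory proteins ATP6AP1 and ATP6AP2, the latter also known as the prorenin receptor, had -0.05 and 0.06.

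**Figure D2:**
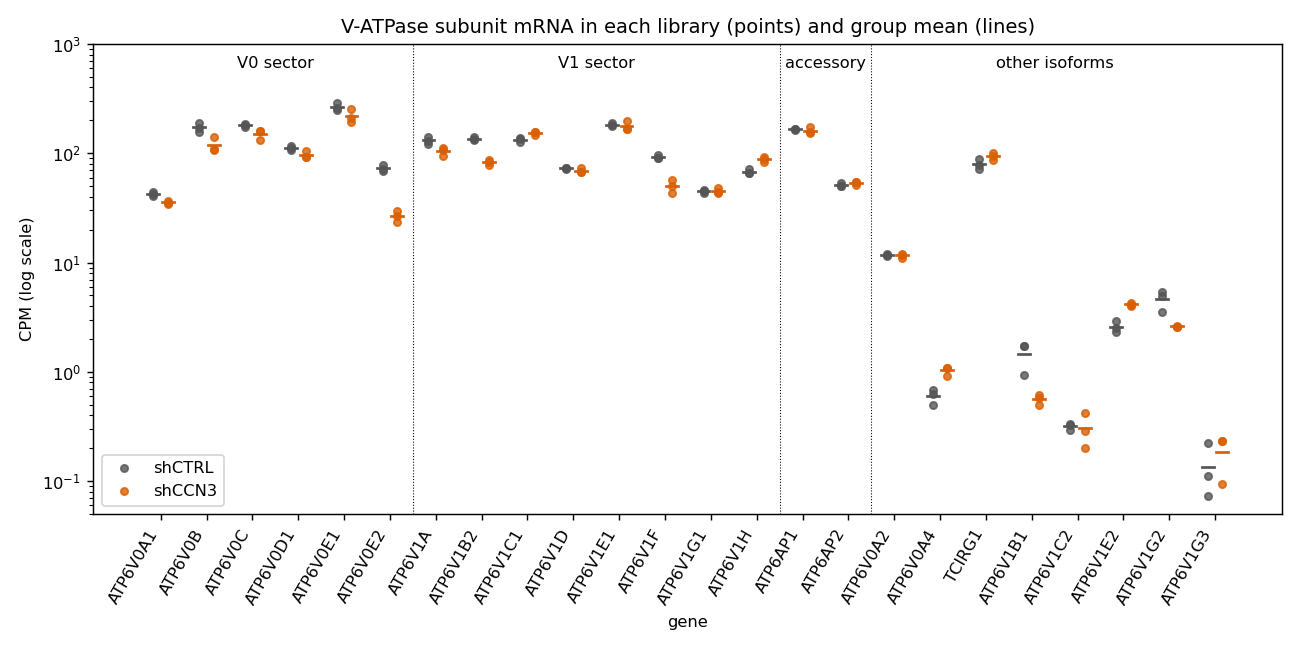
CPM on a log scale of the V-ATPase genes tested, with 1 point per library (grey shCTRL, orange shCCN3) and a line at the mean of 3 libraries. ATP6V0E2, ATP6V1F and ATP6V1B2 show the clearest gap below shCTRL, while the other isoforms on the right lie under 6 CPM, apart from TCIRG1 and ATP6V0A2.

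Cathepsins are the proteases of the lysosome. CTSD, an aspartic protease, was at 1270, 1380 and 1490 CPM in shCTRL and at 922, 1040 and 890 CPM in shCCN3 (log2 fold change -0.54, SE 0.08, edgeR adjusted p = 0.000791). CTSL, a cysteine endoprotease, went from 777, 783 and 793 CPM to 545, 566 and 520 CPM (log2 fold change -0.53, SE 0.055, edgeR adjusted p = 9.24e-05). Both lay lower in every shCCN3 library: CTSD decreased by 31.1% and CTSL decreased by 30.7%. CTSH, an aminopeptidase, was lower in level and changed more, from 25.5, 26.0 and 27.7 CPM to 13.1, 15.5 and 13 CPM (log2 fold change -0.93, SE 0.088, edgeR adjusted p = 5.46e-05). CTSB, a cysteine protease with a carboxydipeptidase activity, fell less (log2 fold change -0.31, SE 0.057, edgeR adjusted p = 0.00266), from between 978 and 1060 CPM to between 798 and 856 CPM.

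CTSC was the cathepsin that passed the test as higher. It is the dipeptidyl peptidase that activates granule serine proteases. Its libraries were at 184, 179 and 183 CPM in shCTRL and at 222, 231 and 208 CPM in shCCN3, without overlap (log2 fold change 0.28, SE 0.059, edgeR adjusted p = 0.00618). CTSS, known from antigen-presenting cells, was barely expressed, at 0.335, 0.271 and 0.328 CPM in shCTRL and 0.508, 0.72 and 0.485 CPM in shCCN3, and it missed the threshold (log2 fold change 0.86, SE 0.298, edgeR adjusted p = 0.0517). It passed under 2 of the 13 alternatives, at least 10 counts in every sample (adjusted p = 0.0299) and limma-voom (just under the threshold), and over all alternatives its adjusted p reached 0.157. CTSK, known from osteoclasts, was at 2.39, 2.66 and 3.08 CPM and at 2.45, 3.62 and 3.1 CPM, which overlap (log2 fold change 0.17). CTSV, a close relative of CTSL outside the 52 genes, fell from 1.56, 2.23 and 2.21 CPM to 0.871, 0.936 and 1.11 CPM (log2 fold change -1.04, SE 0.207, edgeR adjusted p = 0.00422). CTSA, CTSF, CTSO, CTSZ and TPP1 did not pass the test, with log2 fold changes between -0.49 for CTSO and 0.15 for TPP1. CTSO was at 1.62 to 3.23 CPM, and its standard error of 0.198 was wide.

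Per kb of exon, the scale on which genes can be compared, the order in shCTRL was CTSD at 650 ± 52.7 CPM per kb, CTSL at 332 ± 3.46, CTSZ at 320 ± 17.7, CD63 at 277 ± 19.2 and PSAP at 250 ± 2.96 CPM per kb (SD, n = 3). CTSL and CTSZ differed by less than the spread of CTSZ. In shCCN3 the levels were 448 ± 37.0 CPM per kb for CTSD, 308 ± 20.6 for CTSZ, 230 ± 9.8 for CTSL, 221 ± 6.95 for PSAP and 217 ± 27.8 for CD63. CTSZ, an exopeptidase whose groups overlapped (log2 fold change -0.06), thus stood above CTSL in shCCN3, and the levels of CTSL, PSAP and CD63 there lay within the spread of CD63. The lowest of the 52 genes on this scale was CTSS at 0.0757 CPM per kb in shCTRL and 0.139 CPM per kb in shCCN3.

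**Figure D3:**
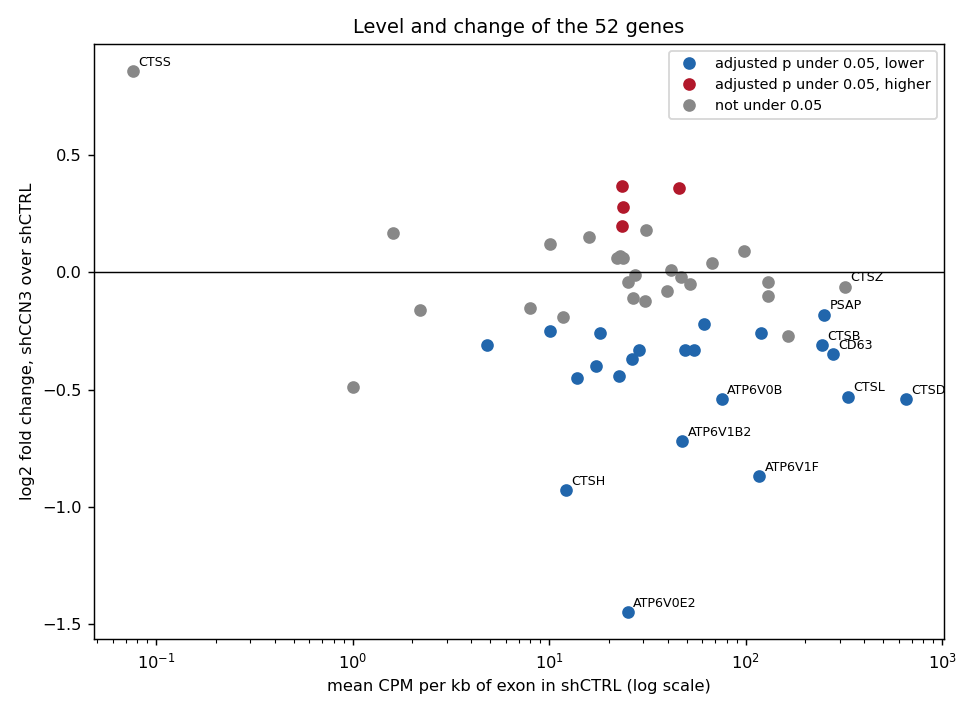
Mean CPM per kb of exon in shCTRL (log scale) against the log2 fold change for the 52 genes, coloured by the edgeR result. The genes of highest level, from CTSD at 650 CPM per kb to PSAP at 250 CPM per kb, lie below 0, and of these CTSZ did not pass the test.

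The glycosidases and sulfatases remove sugars and sulfates from glycans. NAGLU, which acts on heparan sulfate, was lower (log2 fold change -0.45, SE 0.069, edgeR adjusted p = 0.000892), from between 33.8 and 37.0 CPM to between 25.2 and 27.0 CPM. The β-glucuronidase GUSB (-0.40), the α-galactosidase GLA (-0.37), the α-iduronidase IDUA (-0.31) and the iduronate sulfatase IDS (-0.26) were lower too, without overlap between the groups. The calls of IDUA and IDS were lost under 7 and 4 of the 13 alternatives. GUSB has many near-identical pseudogenes with reads of their own, such as GUSBP1 at 8.99 CPM in shCTRL and 10.2 CPM in shCCN3, so its value is uncertain. NEU1, the lysosomal sialidase, was the glycosidase that rose, from 90.4, 92.9 and 96.2 CPM to 114, 132 and 114 CPM (log2 fold change 0.36, SE 0.072, edgeR adjusted p = 0.00396). CTSA, which holds NEU1 in a complex and protects it, had a log2 fold change of -0.10 and did not pass the test. HEXA, GAA, GLB1 and GBA2 had values between -0.19 and 0.12, and the sulfatases ARSA, ARSB and SGSH between -0.16 and -0.01.

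Of the lipid hydrolases with prosaposin, all but LIPA were lower. The acid ceramidase ASAH1 went from 109, 103 and 98 CPM to 77.8, 73.3 and 78.5 CPM (log2 fold change -0.44, edgeR adjusted p = 0.000723), and the acid sphingomyelinase SMPD1 from 132, 133 and 138 CPM to 107, 109 and 103 CPM (log2 fold change -0.33, edgeR adjusted p = 0.00159). PSAP, the precursor of the saposins that present lipids to these enzymes, fell only slightly, from 714, 719 and 731 CPM to 613, 645 and 651 CPM (log2 fold change -0.18, SE 0.052, edgeR adjusted p = 0.0258), a call lost under 5 of the 13 alternatives. PPT1, which removes palmitate from proteins, was lower by a similar size to SMPD1 (log2 fold change -0.33), and its span overlaps CAP1, which was at 476 CPM in shCTRL and 473 CPM in shCCN3. LIPA, the acid lipase for cholesteryl esters and triglycerides, had overlapping groups (log2 fold change 0.06). Its span overlaps interferon-induced genes such as IFIT2, which was at 24.1 CPM in shCTRL and 86.9 CPM in shCCN3, so its value is uncertain.

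Of the membrane proteins and NPC2, only CD63, a tetraspanin of late endosomes and exosomes, passed the test, at 601, 628 and 688 CPM in shCTRL and 483, 571 and 446 CPM in shCCN3 (log2 fold change -0.35, SE 0.094, edgeR adjusted p = 0.0174). That call was lost under 4 of the 13 alternatives, without shCCN3 replicate 1 or 3 or without shCTRL replicate 2 or 3. The abundant LAMP1 and LAMP2 had log2 fold changes of 0.09 and -0.02, with standard errors of 0.053 and 0.074. SCARB2, which carries glucocerebrosidase to the lysosome, had 0.18 (edgeR adjusted p = 0.059), the calcium channel MCOLN1 had 0.07, and the cholesterol carrier NPC2 had 0.04. For LAMP1 and SCARB2 the shCCN3 libraries all lay above the shCTRL libraries, although neither passed the test.

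**Figure D4:**
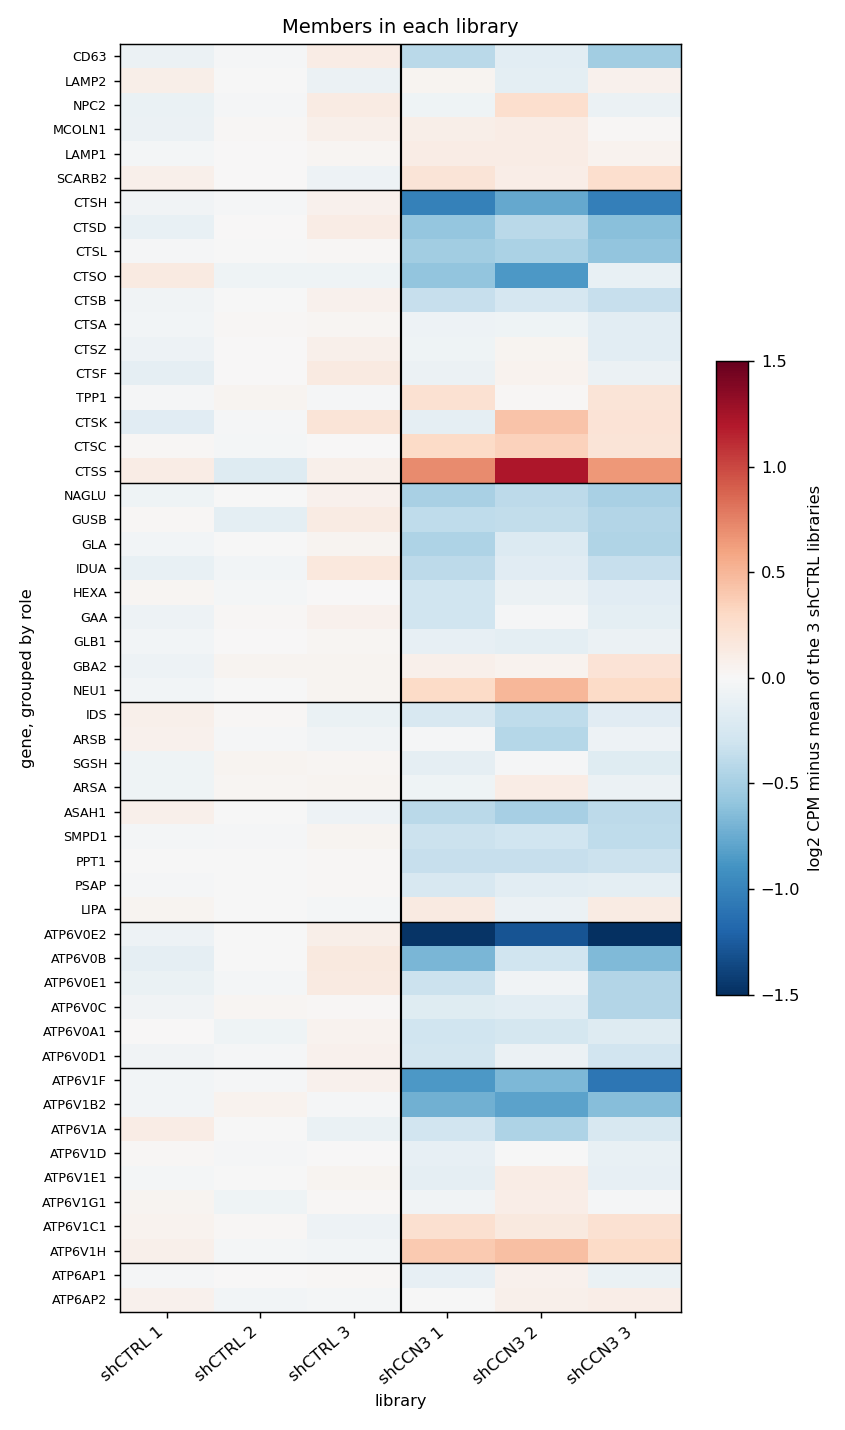
Log2 CPM of the 52 genes in each of the 6 libraries minus the mean of the 3 shCTRL libraries, with genes grouped by role in the same order as the plot of fold changes. The shCCN3 columns are blue over most of the V0 and lipid hydrolase rows. They are mixed over the cathepsin rows, where CTSC, CTSK, CTSS and TPP1 had positive log2 fold changes. For CTSH, CTSD, ATP6V0B and CD63, shCCN3 replicate 2 is paler than the other shCCN3 libraries.

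Set beside the promoter motifs, the genes with an exact CLEAR core, among the 36 with a window, were mostly those that did not pass the test. Of these 6 genes ATP6V0D1 was lower, with a call lost under 7 of the 13 alternatives, and LAMP1, MCOLN1, ATP6V1G1, GAA and CTSA did not pass (median log2 fold change -0.05). Of the 30 genes with a window and no exact CLEAR core, 15 were lower and 2 were higher (median -0.21). Only an exact match was counted as a core. The E-boxes printed for ATP6V0E2, ATP6V0B, CTSD and NEU1 come close to the core, yet these genes were counted as having none. The split of the genes therefore depends on the exact match, and a looser motif was not tested. Genes without a window could not be scanned, and of those ASAH1, ATP6V1A, ATP6V1B2, CTSB, NAGLU and PSAP were lower and ATP6V1C1 and ATP6V1H were higher. Over all genes tested, 17.3% of those with a CLEAR core and 18.0% of those without were lower, with medians of 0.00 and 0.01. An E-box was found in 5 of the 16 lower genes with a window (31.2%) and in 7 of the 18 genes that did not pass (38.9%), and an M-box in 3 of 16 and in 3 of 18.

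Of the 3 MiT/TFE factors with enough counts to be tested, only TFEB passed. It was at 11.2, 10.9 and 12 CPM in shCTRL and at 15, 14.3 and 14.7 CPM in shCCN3, without overlap (log2 fold change 0.37, SE 0.078, edgeR adjusted p = 0.00519). TFEB lies on chromosome 6, where the median log2 fold change was 0.34. MITF had overlapping groups, at 9.55, 10.1 and 8.25 CPM and 11, 9.38 and 10.0 CPM (log2 fold change 0.12, edgeR adjusted p = 0.425), and TFE3 did not pass either (log2 fold change -0.14, edgeR adjusted p = 0.152). TFEC was at 0.102, 0.0637 and 0.119 CPM in shCTRL and without counts in shCCN3, and was not tested. GPNMB, a lysosomal and cell surface glycoprotein that is a known MITF target, was at 284, 283 and 264 CPM in shCTRL and 140, 129 and 143 CPM in shCCN3 (log2 fold change -1.01, SE 0.064, edgeR adjusted p = 4.86e-06). It lies on chromosome 7, where the median log2 fold change was -0.43, and its nearest tested genes had a median of -0.31. The part of that shift in the value of GPNMB was not tested.

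The position of the genes on the chromosomes moved with part of these values. On chromosome 7 the median log2 fold change of the other genes was -0.43, and all 3 genes of the list there were lower. GUSB (-0.40) fell less than the median of its 24 nearest tested genes (-0.54), whereas ATP6V1F (-0.87) and ATP6V0E2 (-1.45) fell further than theirs (-0.44 and -0.41). Among the genes that rose, NEU1 (0.36), ATP6V1H (0.37) and ATP6V1C1 (0.20) were close to the medians of their neighbours, 0.36, 0.37 and 0.22, while CTSC (0.28) had neighbours at 0.01. On chromosome 8, which also holds CCN3, the median log2 fold change of the other genes was 0.11. There CTSB, ASAH1 and ATP6V1B2 fell and lay among neighbours with medians from -0.18 to -0.13, while ATP6V1C1 and ATP6V1H, on the same chromosome, rose. Of the lower genes elsewhere, PPT1 (-0.33) was close to its neighbours (-0.31), and GLA (-0.37) and ATP6V0B (-0.54) had neighbours at -0.25 and -0.29. Outside chromosome 7, 19 of 49 genes were lower and 4 were higher, with a median of -0.12, and after subtraction of each chromosome's median the median over the 52 genes was -0.16. The part of chromosome-wide shifts in the value of a single gene was not tested.

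**Figure D5:**
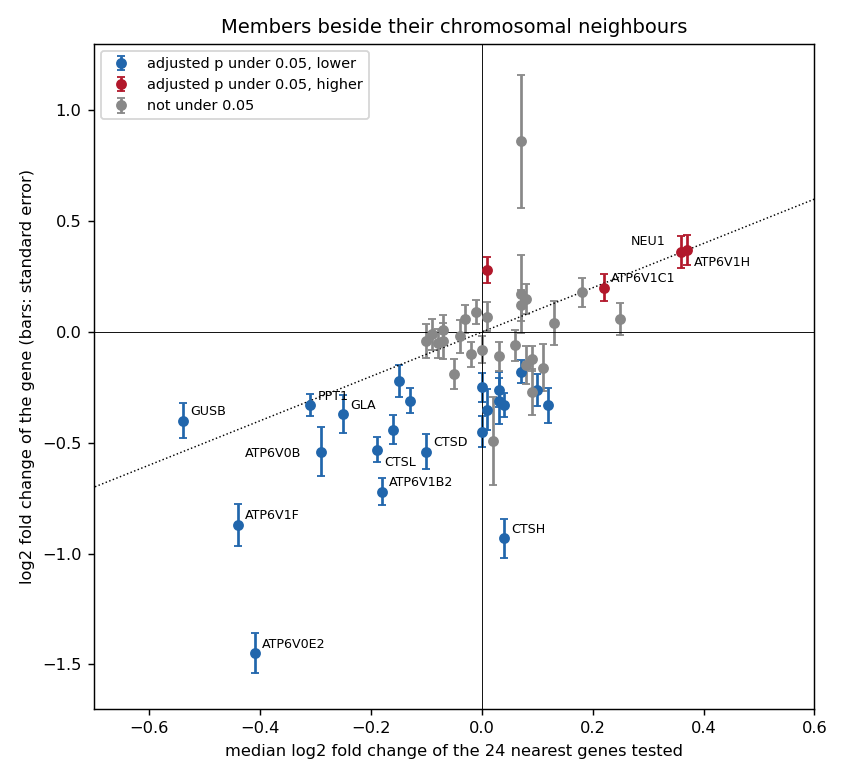
Log2 fold change of each of the 52 genes (bars, standard error) against the median of its 24 nearest genes tested on the chromosome, with a dotted line of equality. NEU1, ATP6V1H and ATP6V1C1 lie on the line, and ATP6V0E2, CTSH, ATP6V1F and ATP6V1B2 lie well below it.

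Further genes of the same system were taken from lists by function, 95 genes of which 86 were tested. Of these 22 were lower and 16 were higher, which is 25.6% and 18.6%, beside 17.3% and 16.2% of all genes tested, and the median log2 fold change was -0.05. Of the 29 other hydrolases and activators tested, 11 were lower (37.9%) and 4 were higher (13.8%), and without shCTRL replicate 2 these counts were 7 and 2. ACP5, the tartrate-resistant acid phosphatase, went from 3.77, 3.93 and 4.17 CPM to 1.0, 0.972 and 0.891 CPM (log2 fold change -2.05, SE 0.143, edgeR adjusted p = 8.71e-06), and the arylsulfatase ARSG also fell (-1.27). A list of 10 genes that modify, tag or sort new hydrolases held 3 lower and 2 higher genes. It had SUMF2, a relative of the sulfatase-activating enzyme, at -0.42, the sorting factor CLN8 at -0.30 and the mannose 6-phosphate receptor IGF2R at 0.38. None of the 3 lower genes tags hydrolases with mannose 6-phosphate. The tagging genes GNPTAB, GNPTG and NAGPA and the receptor M6PR did not pass the test, with log2 fold changes from -0.16 to 0.09. The groups of IGF2R overlapped (edgeR adjusted p = 0.0487), and its call was lost under 8 of the 13 alternatives, with an adjusted p up to 0.158. SUMF2 lies on chromosome 7 (median -0.43, neighbours -0.30), CLN8 on chromosome 8 (median 0.11, neighbours -0.27) and IGF2R on chromosome 6 (median 0.34, neighbours 0.45). The list's remaining called genes were SORT1, at 0.26 (chromosome median -0.13, neighbours -0.37), and SUMF1, at -0.21 (chromosome median 0.03, neighbours 0.01). The list's 2 higher calls fell to 0 with no filter on low counts and under the replicate block. They also fell to 0 in each fit without 1 library, apart from the fit without shCCN3 replicate 2. Its 3 lower calls fell to 2 under the replicate block and without shCCN3 replicate 1 or 3 or shCTRL replicate 1 or 2. Without shCTRL replicate 3 they fell to 1. SUMF1 lost its call in all of these fits, and CLN8 lost its call without shCTRL replicate 3 (edgeR adjusted p = 0.0524).

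Of 23 other membrane proteins tested, 4 were lower (17.4%) and 3 were higher (13%), near the shares of all genes tested. LAPTM4A, a small lysosomal transmembrane protein, was at 161, 152 and 156 CPM in shCTRL and at 378, 414 and 399 CPM in shCCN3 (log2 fold change 1.34, SE 0.06, edgeR adjusted p = 6.33e-07), and its neighbours had a median of 0.60. CD68 fell (log2 fold change -0.81) and the channel MCOLN3 rose (0.55). Of the 8 other V-ATPase isoforms tested, ATP6V1B1 (-1.39) and ATP6V1G2 (-0.83) fell and ATP6V0A4 (0.78) and ATP6V1E2 (0.68) rose, all at under 6 CPM. The call of ATP6V0A4 was lost under 4 of the 13 alternatives (adjusted p up to 0.0971), and without shCTRL replicate 3 the list had 4 higher genes in place of 2. ATP6V1B1 made up 1.57% ± 0.467 of B subunit mRNA per kb in shCTRL and 0.999% ± 0.139 in shCCN3 (SD, n = 3), so ATP6V1B2 was the main B isoform in both groups. Among 9 assembly and regulation genes, NCOA7, which binds the V-ATPase, rose (1.25, on chromosome 6 with a median of 0.34), CCDC115, an assembly factor, fell (-0.42), and the others did not pass.

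Of the 8 cystatins, inhibitors of the cysteine cathepsins, 4 could be tested, of which 3 were higher and 1 was lower. Of all genes tested, 16.2% were higher and 17.3% were lower, and a list of 4 genes is too short to set against these shares. CST3, the secreted cystatin C, went from 238, 252 and 281 CPM to 148, 174 and 134 CPM (log2 fold change -0.76, SE 0.102, edgeR adjusted p = 0.000447), among neighbours with a median of -0.44. The cytosolic CSTB rose from 182, 192 and 202 CPM to 241, 282 and 219 CPM (log2 fold change 0.36, SE 0.092, edgeR adjusted p = 0.0136), on chromosome 21 with a median of 0.23. CSTA (2.27) and CST7 (1.47) rose from levels under 1 CPM and kept their calls under every alternative. The list's 3 higher calls fell to 2 without shCTRL replicate 1 or shCTRL replicate 2, where CSTB lost its call. CST3 and CSTB, which had the most counts, moved in opposite directions.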

How the data were processed

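Stranded poly(A) libraries were sequenced on an Illumina NovaSeq instrument. The authors deposited raw read counts per gene for 46427 genes, 1 column per library and no normalization, in a single table. The submitters' processing notes name bcl2fastq 2.20.0, Trimmomatic, HISAT2 2.1.0, StringTie 2.1.3d, DESeq2 and build GRCh38, and neither the annotation nor the strand setting is given in the sources used here. The submitters describe the 3 libraries per group as independent biological replicates, and no source says that they come from separate transductions, so p-values measure the spread between cultures of 1 line per group.

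Counts were scaled with TMM factors, filtered by edgeR's filterByExpr by group, which left 17419 genes, and tested with the quasi-likelihood test of edgeR 4.0.16 (R 4.3.3), with Benjamini-Hochberg adjustment over all of them and a threshold of 0.05. The code was tested on simulated counts. CPM are counts scaled to the TMM-scaled library size, with a depth of 56159110 to 68393177 counts. Levels per kb used the exons of protein-coding transcripts in GENCODE release 29. RefSeq (GRCh38.p14), in which 44698 of the Gene IDs were found, gave chromosomes and neighbours. Chromosome and neighbour medians left out the 52 genes.

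The genes and all lists were chosen with earlier results of these data known. Genes named were CCN3, GPNMB, members with an adjusted p under 0.05 and an absolute log2 fold change of at least 0.5 (at most 12 each way, values in every library), the 5 members highest per kb, isoform partners, up to 3 genes of each other list and the MiT/TFE factors. Other members are given by their values in brief, CTSC, NEU1, ATP6V1C1 and ATP6V1H in full after their values were seen, and further genes of other lists and markers likewise. Counts per role were also recomputed under each alternative. Alternatives were DESeq2's size factors, upper-quartile factors, no filter, a minimum of 10 counts per sample, limma-voom (limma 3.58.1), DESeq2 1.42.0, a replicate block and each library left out.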

Additional observations from a re-analysis of the deposited data

How the results depend on the processing

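Across the 13 alternatives the 52 genes kept a surplus of lower genes. Normalization, filter and tool gave 20 to 24 lower and 4 or 5 higher genes, against 22 and 4. With the replicate block 16 were lower and 3 were higher, and 4887 of all genes passed, against 5825. The replicate numbers were not taken to pair the samples, since same-numbered libraries had deviations from their group means that correlated at 0.0835, -0.0207 and -0.0456, and not every library correlated best with its own number. Leaving out 1 library gave 15 to 26 lower and 3 to 6 higher genes. The count was lowest without shCCN3 replicate 1 and highest without shCCN3 replicate 2, and the cause was not tested. Of the 26 genes that passed, 18 passed under every alternative, among them the 7 with the largest falls, CTSC, NEU1 and ATP6V1H. The 8 that lost the call at least once were ATP6V0A1, ATP6V0C, ATP6V0D1, ATP6V1C1, CD63, IDS, IDUA and PSAP (7 of them under the block), and none changed direction. A further 8 genes passed under at least 1 alternative: ATP6V0E1, CTSO, CTSS, GAA, HEXA, SCARB2, SGSH and TPP1. For the counts over the 95 other genes, the same alternatives were chosen after seeing the data: they gave 17 to 22 lower and 11 to 19 higher genes, against 22 and 16. Of the other genes named by the rule, IGF2R lost its call under 8 alternatives, ATP6V0A4 under 4 and CLN8 under 1. In a library 3 counts are 0.0435 to 0.054 CPM, and TFEC, at 0.0637 to 0.119 CPM in shCTRL, lay near that level.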

Other observations

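Some genes of the other lists that the report leaves unnamed also passed the test, and were chosen here after their values were seen. The α-fucosidase FUCA1 was at 32.4, 34.4 and 33.2 CPM in shCTRL and at 19.6, 22.0 and 19.9 CPM in shCCN3 (log2 fold change -0.70, edgeR adjusted p = 8.53e-05). The acid amidase NAAA (-0.58), the carboxypeptidase SCPEP1 (-0.40) and HGSNAT (-0.31), which acetylates heparan sulfate, were also lower. In the other direction, LGMN, the asparaginyl endopeptidase that processes cathepsins, rose from 74.3, 75.1 and 78.5 CPM to 94.4, 105 and 93.1 CPM (log2 fold change 0.36, edgeR adjusted p = 0.00271), and DNASE2 (0.24), GALNS (0.24) and MAN2B1 (0.23) rose less. LGMN, DNASE2, GALNS and MAN2B1 were the 4 higher genes of the other hydrolases and activators. That count fell to 2 under the replicate block and without shCTRL replicate 1 or 2. It fell to 3 without shCCN3 replicate 1 or shCTRL replicate 3. Among membrane proteins the amino acid transporter SLC66A1 (-0.55) and the channel TMEM175 (-0.47) fell.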
